A study of Mus musculus with 10 samples.

Results

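Caspases are proteases that dismantle a cell from within. They are made as inactive precursors, and the transcripts of 8 genes that drive or hold back their activation were followed in mouse jejunal crypts with and without the transcription factor Arid3a. The genes were taken from a list of names chosen with earlier results of these data known. They comprised 5 drivers (Casp6, Casp8, Casp9, Apaf1 and Cycs) and 3 inhibitors (Cflar, Xiap and Birc2), out of 54838 genes listed for each library. All 8 passed the filter on low counts that left 14719 genes for testing. RNA was sequenced from 5 WT and 5 KO mice, with 1 library per animal. The KO mice (Arid3a cKO) carried floxed Arid3a alleles (Arid3a fl/fl) and VillinCre-ERT2, a Cre recombinase made under the Villin promoter in intestinal epithelial cells and switched on by tamoxifen. Both genotypes were given tamoxifen on 3 consecutive days, and crypts were collected 1 month after the first injection, from jejunum whose villi had been scraped away. Age and sex of the animals are not given in the sources used here, nor is a batch. The animal numbers fall under 3 stems in each genotype, of which 0 are shared, so whatever a stem stands for and the genotype cannot be told apart.

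In the death receptor route, ligand-bound receptors gather the initiator caspase Casp8, and Cflar (c-FLIP), a relative of Casp8 with little or no protease activity of its own, competes with it there. In the mitochondrial route, cytochrome c (Cycs) leaves the mitochondrion and assembles with Apaf1 into the apoptosome, which activates the initiator Casp9. Downstream of the initiators act executioner caspases such as Casp6, which cuts nuclear lamins. Xiap binds and blocks active caspases, and Birc2 (cIAP1) is a ubiquitin ligase that acts at the tumour necrosis factor receptor. Intestinal epithelium is renewed continuously and its cells are shed at the villus tip, and caspases also have roles outside cell death. Transcript levels do not report cleavage, so nothing here measures caspase activity.

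Library totals ran from 27050455 to 28152743 expected counts in WT and from 28314069 to 31053622 in KO. Levels are given in CPM, counts relative to a library size that was scaled by TMM, a factor that corrects for differences in composition between libraries and that was 1.004 to 1.083 in WT and 0.934 to 0.986 in KO. Arid3a itself lay at 1.92 to 2.75 CPM in WT and 0.303 to 1.17 CPM in KO, a log2 fold change (KO minus WT throughout) of -1.84 ± 0.32 (SE, adjusted p = 0.00204 by edgeR). The groups did not overlap, so the libraries matched their labels. Of 14719 genes tested with edgeR, 2298 were higher in KO (15.6%) and 1869 lower (12.7%), together 28.3%. Where libraries were scaled by their totals alone the split was 1541 higher and 4030 lower, and with log2(TPM + 0.1) it was 1399 and 2742. These scalings shifted the median of all genes from -0.03 to -0.16 and -0.13 log2. The tissue label was checked against marker genes. The summed CPM of 5 epithelial markers was 5449 to 6314 in WT and 6314 to 7226 in KO, and the 6 T cell markers summed to 76.5 to 263.9 and 114.5 to 280.7 CPM.

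Of the 8 genes, 6 were higher in KO, 3 of the 5 drivers (Casp6, Casp9 and Cycs) and all 3 inhibitors, and 0 were lower. Of all genes tested 15.6% were higher. The median log2 fold change of the 8 genes was 0.41, against -0.03 over all genes tested. The 8 genes were chosen with earlier results of these data known, so the counts and the median here are descriptions and not a test. Casp6 rose 1.57-fold, Xiap 1.5-fold, Cflar 1.45-fold, Cycs 1.41-fold, Casp9 1.26-fold and Birc2 1.17-fold. Casp8 and Apaf1 did not pass the threshold. For 5 of the 8 genes (Casp6, Casp9, Cycs, Cflar and Xiap) the CPM of every KO library lay above that of every WT library. This held for 12.0% of all genes (19.6% did not overlap in either direction). In TPM, a level per transcript length, only Casp6 and Xiap stayed apart. There Casp9 (WT up to 10.09, KO from 8.96), Cycs (51.54 and 51.43) and Cflar (16.16 and 13.32) overlapped.

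**Figure D1:**
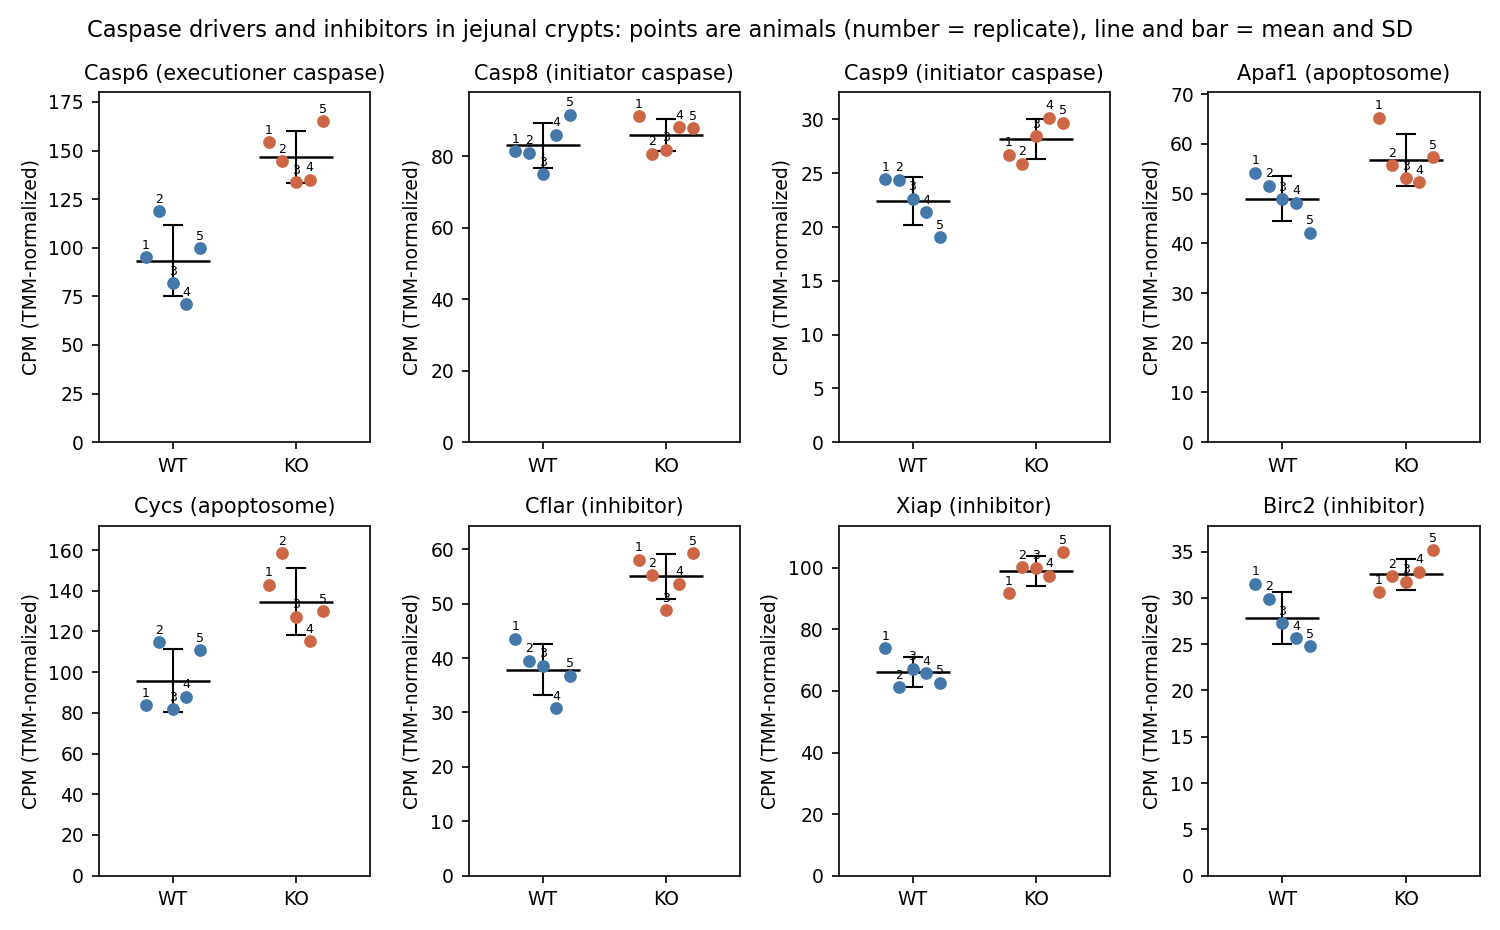
CPM of the 5 drivers and 3 inhibitors, with genotype on the x axis and TMM-normalized CPM on the y axis. Each point is 1 animal numbered by replicate, and the line and bar are the mean and SD of 5 animals. Every KO point lies above every WT point for Casp6, Casp9, Cycs, Cflar and Xiap, while those of Casp8, Apaf1 and Birc2 overlap.

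The caspases differed among themselves. Casp6, the executioner, stood at 95.2, 118.9, 81.7, 71.0 and 99.8 CPM in WT1 to WT5 and at 154.4, 144.4, 133.7, 135.0 and 165.2 CPM in KO1 to KO5. WT4 was the lowest library and WT2 the highest of its group, and the lowest KO library was still above WT2. Group means were 93.3 ± 18.3 CPM in WT and 146.5 ± 13.4 CPM in KO (SD over 5 animals). The log2 fold change was 0.65 ± 0.12 (SE, adjusted p = 0.00323 by edgeR). Casp9, the initiator of the apoptosome, stood at 24.4, 24.4, 22.6, 21.4 and 19.1 CPM in WT and at 26.7, 25.9, 28.5, 30.2 and 29.7 CPM in KO. The groups lay close together without overlapping, with a log2 fold change of 0.33 ± 0.08 (SE, adjusted p = 0.0119 by edgeR). This call was lost with library totals alone (log2 fold change 0.20, adjusted p = 0.0980 by edgeR) and with log2(TPM + 0.1) (0.30, adjusted p = 0.0804 by limma). The 3′ end of Casp9 is overlapped on the opposite strand by Cela2a, which held 0 to 52 counts where Casp9 held 525 to 887. Casp8, the initiator of the death receptor route, stood at 81.4, 81.0, 75.0, 86.0 and 91.6 CPM in WT and at 91.2, 80.7, 81.9, 88.1 and 87.9 CPM in KO. The groups covered the same range, with a log2 fold change of 0.05 (adjusted p = 0.599 by edgeR). Its approximate 95% interval was -0.08 to 0.18, taken from the SE under a normal distribution and so too narrow for 5 animals a group. The sign of the fold change turned with library totals alone (-0.08) and with log2(TPM + 0.1) (-0.07).

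Apaf1, the scaffold of the apoptosome, stood at 54.2, 51.6, 48.9, 48.2 and 42.2 CPM in WT and at 65.3, 55.7, 53.1, 52.3 and 57.3 CPM in KO. KO1 stood above the others, and the lower KO libraries lay within the WT range. The log2 fold change was 0.21 (approximate 95% interval 0.05 to 0.38, likewise too narrow, adjusted p = 0.0756 by edgeR). With the effective length of the gene in each library as an offset Apaf1 passed, at 0.35 (adjusted p = 0.0139).

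Cycs, which encodes cytochrome c, stood at 83.9, 114.6, 81.8, 88.0 and 110.7 CPM in WT and at 143.0, 158.4, 127.2, 115.1 and 129.8 CPM in KO. The log2 fold change was 0.49 ± 0.11 (SE, adjusted p = 0.00865 by edgeR), and KO4 was only just above WT2. This value rests on how reads were divided. Gm10053 on chromosome 19 matched the Cycs transcript at 99.9% over 946 bases, and Gm10108 on chromosome 5 at 99.4% over 319 bases, and both took counts. Cycs itself held only 30.2% to 31.3% of the counts of the set in WT and 30.2% to 34.1% in KO. Gm10053 was at 122.9 to 173.3 CPM in WT and 169.1 to 224.7 in KO (log2 fold change 0.57 ± 0.11, SE, adjusted p = 0.00361 by edgeR). Gm10108 was at 59.4 to 97.7 CPM in WT and 72.1 to 104.0 in KO (0.13 ± 0.15, adjusted p = 0.549 by edgeR). Which of these loci a read came from is uncertain, so the sum is the safer value.

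Summed over Cycs and the 4 genes at least 95% identical to it, a sum chosen after the data were seen, the libraries stood at 268.1, 379.8, 264.3, 290.2 and 359.6 CPM in WT and at 467.9, 464.0, 421.7, 362.7 and 415.5 CPM in KO. The groups now overlapped, since KO4 fell below WT2. The sum was higher in KO by 0.45 ± 0.11 log2 (SE, adjusted p = 0.0130 by edgeR), and it passed in 10 of 10 fits that left out 1 library, with adjusted p from 0.00391 to 0.0364.

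**Figure D2:**
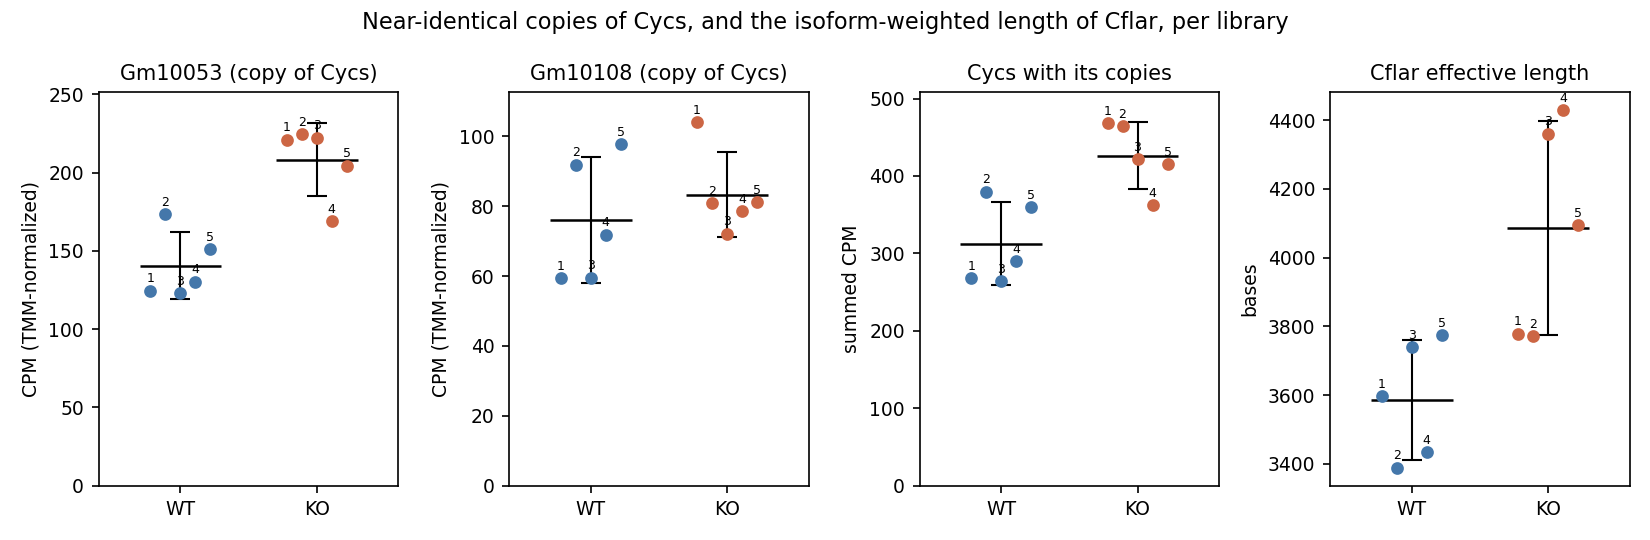
Gm10053, Gm10108 and the sum of Cycs with its copies in CPM, and the effective length of Cflar in bases on an axis that does not start at 0, by genotype. Points are animals numbered by replicate, and the line and bar are the mean and SD. The summed Cycs points overlap between KO4 and WT2, and the Cflar lengths run from 3389 to 3774 bases in WT and 3771 to 4430 in KO.

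All 3 inhibitors were higher in KO, with unequal certainty. Xiap stood at 73.8, 61.1, 67.3, 65.8 and 62.7 CPM in WT and at 91.7, 100.3, 100, 97.5 and 105.1 CPM in KO. The lowest KO library was well above the highest WT library, and the log2 fold change was 0.58 ± 0.07 (SE, adjusted p = 0.000411 by edgeR), the smallest p of the 8 genes. Cflar stood at 43.6, 39.5, 38.6, 30.8 and 36.8 CPM in WT and at 58.1, 55.2, 48.9, 53.7 and 59.3 CPM in KO, without overlap. Its log2 fold change was 0.54 ± 0.09 (SE, adjusted p = 0.00192 by edgeR), but only 0.26 with log2(TPM + 0.1), where the call was lost (adjusted p = 0.109 by limma). Birc2 stood at 31.5, 29.9, 27.3, 25.6 and 24.8 CPM in WT and at 30.6, 32.4, 31.8, 32.8 and 35.2 CPM in KO. WT1 lay within the KO range, and the log2 fold change of 0.23 ± 0.08 (SE, adjusted p = 0.0497 by edgeR) lies at the edge of the threshold. It passed in only 2 of the 10 fits that left out 1 library, those without WT1 and without WT2 (adjusted p 0.0219 to 0.133 by edgeR over the 10), and was 0.09 with library totals alone and 0.07 with log2(TPM + 0.1), both short of the threshold.

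**Figure D3:**
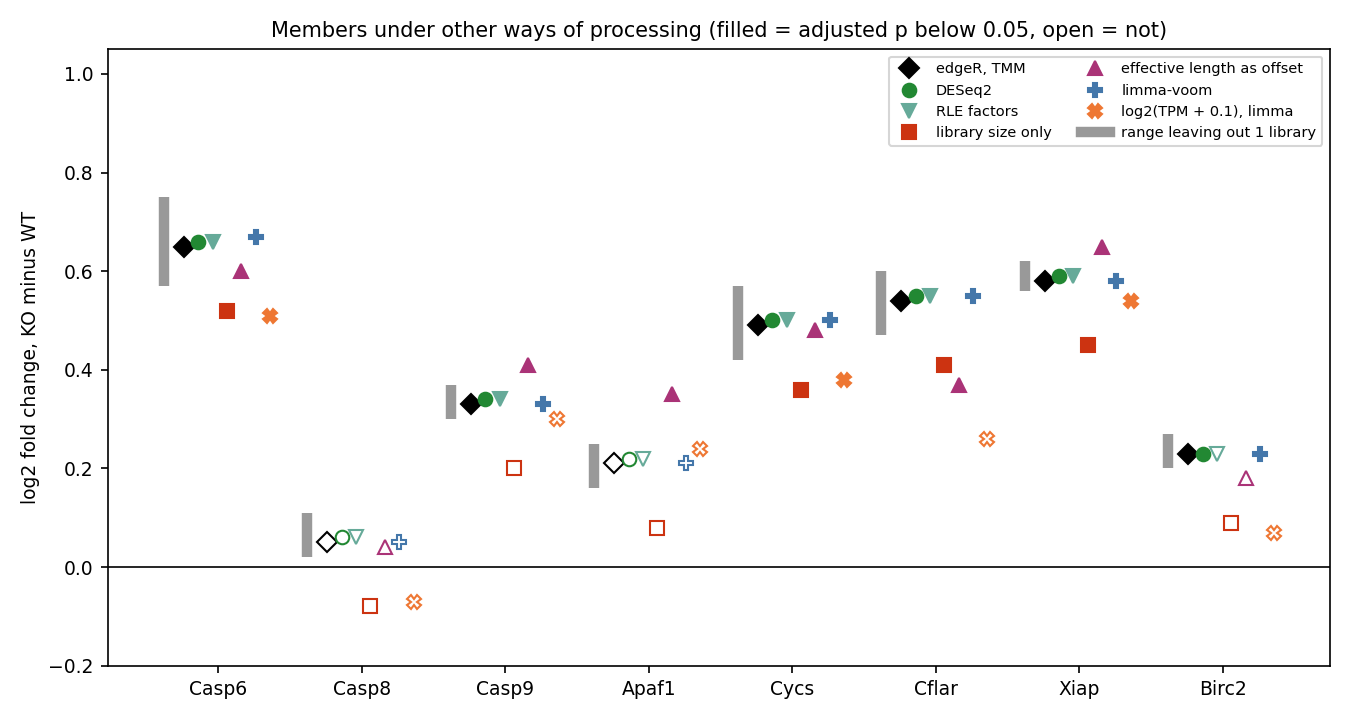
Log2 fold change (y axis, KO minus WT) of each gene (x axis) under 7 ways of processing, with grey bars for the range when 1 library is left out. Filled markers have an adjusted p below 0.05. Casp6, Cycs and Xiap stay filled under all 7, Birc2 is filled under 3, and Casp8 lies on either side of 0.

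Casp8 and Cflar are neighbours on chromosome 1, 36.5 kb apart, and yet Cflar rose while Casp8 did not pass. The log2 ratio of Casp8 to Cflar in TPM, a level per transcript length, was 1.91, 1.94, 1.998, 2.42 and 2.40 in WT and 1.70, 1.59, 2.001, 1.98 and 1.73 in KO. The means differed by -0.33 with overlap between the groups, WT4 and WT5 standing highest. The log2 ratio of Casp9 to Xiap averaged -0.87 ± 0.16 in WT and -1.11 ± 0.17 in KO, and that of Apaf1 to Xiap 0.05 ± 0.16 and -0.25 ± 0.22 (SD, n = 5 each), both also overlapping. All 3 ratios kept their sign of difference when any 1 library was left out. Those of Casp9 and Apaf1 share Xiap and so are not independent, and other pairs of driver and inhibitor were not calculated. As ratios of genes chosen from a list with earlier results known, they are given without a test.

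Per length, the drivers outweighed the inhibitors in every library. In WT the order by mean TPM was Casp6 (110.7 ± 17.9), Casp8 (59.5 ± 4.95), Cycs (43.3 ± 6.11), Apaf1 (16.7 ± 1.68), Xiap (16.0 ± 1.28), Cflar (13.6 ± 1.82), Birc2 (12.8 ± 1.95) and Casp9 (8.82 ± 1.15, all SD, n = 5). The ranges of Casp6, Casp8 and Cycs were separate from each other and from the rest, whereas those of Apaf1, Xiap, Cflar and Birc2 overlapped, and Casp9 overlapped only the lowest library of Birc2. In KO, Casp6 stood at 156.6 ± 12.7 TPM, and Casp8 (56.8 ± 4.58) and Cycs (56.3 ± 5.87) could no longer be ranked by their ranges. Xiap (23.3 ± 1.49), Apaf1 (19.7 ± 2.47), Cflar (16.3 ± 2.03), Birc2 (13.3 ± 0.980) and Casp9 (10.9 ± 1.30) followed, and each of these overlapped the next in range. The place of Cycs depends on the division of reads with its copies.

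The summed TPM of the 5 drivers was 211.1 to 273.5 in WT and 274.9 to 325.0 in KO, and that of the 3 inhibitors 36.1 to 48.9 and 49.3 to 57.4, in both cases without overlap. The driver sums and the measures that follow count Cycs without its copies, so they too depend on the division of reads. Without Casp6 the driver sums overlapped in TPM, at 115.5 to 136.7 in WT and 134.3 to 155.9 in KO, but not in TMM-normalized CPM per kb of effective length, at 88.1 to 109 in WT and 112.9 to 127.9 in KO. The log2 ratio of the driver sum to the inhibitor sum was 2.31 to 2.71 in WT and 2.42 to 2.61 in KO. The mean log2 level of drivers less that of inhibitors was 1.25 ± 0.15 in WT and 1.23 ± 0.09 in KO, a difference of -0.02 within the spread of either group. In these pooled measures no shift was thus seen at this number of animals, and how small a shift could be seen was not calculated. They do not speak for single pairs. The log2 ratios of Casp8 to Cflar, Casp9 to Xiap and Apaf1 to Xiap differed by -0.33, -0.24 and -0.30, each with overlap between the groups.

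**Figure D4:**
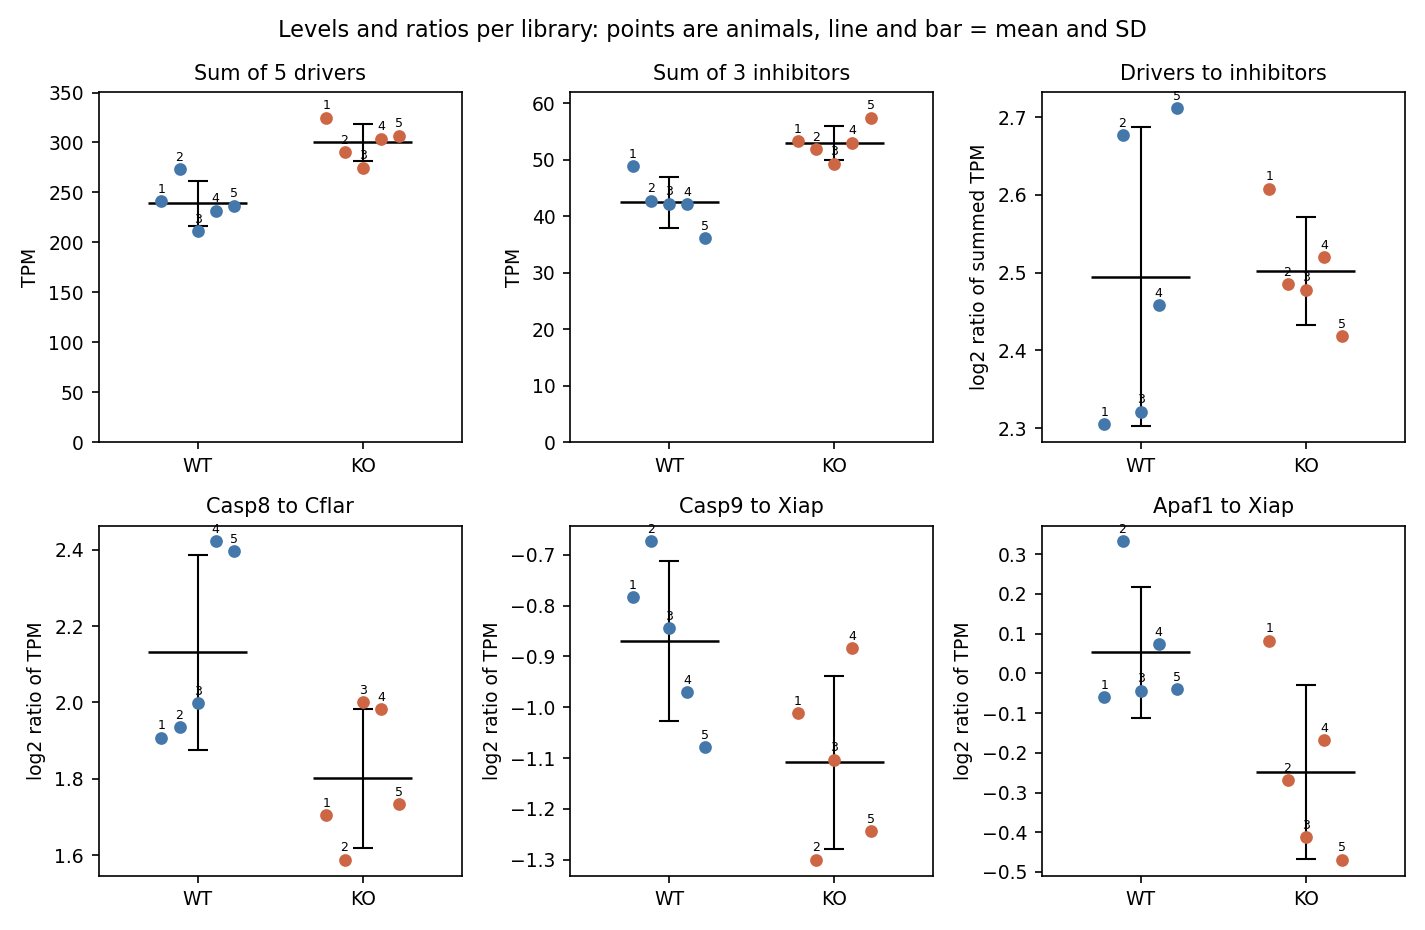
Summed TPM of drivers and inhibitors on axes from 0 (top left and middle), and log2 ratios of TPM on axes that do not start at 0 (top right and bottom row), by genotype. Points are animals numbered by replicate, and the line and bar are the mean and SD. Both sums separate KO from WT, and all 4 ratios overlap.

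A further readout that does not enter the edgeR test is the effective length, which RSEM weights by the estimated share of each annotated isoform, so it moves when the mix of isoforms moves. Cflar, which has 13 annotated transcripts of 351 to 6572 bases, had effective lengths of 3597, 3389, 3739, 3434 and 3774 bases in WT and 3779, 3771, 4361, 4430 and 4095 in KO. The mean was longer in KO, 4087 ± 311 against 3587 ± 174 bases (SD, n = 5 each). A two-sided exact permutation test gave p = 0.0159, and 0.0635 after Benjamini-Hochberg adjustment over 8 genes. Casp8 was 29 bases longer in KO (1829 ± 8 against 1800 ± 16 bases, exact permutation p = 0.0159, adjusted 0.0635), and its ranges met between 1820 and 1821 bases. For Casp6 the difference was 46 bases (exact permutation p = 0.0317, adjusted 0.0847), and for Birc2 117 bases (exact permutation p = 0.0556, adjusted 0.111). Casp9, Apaf1 and Xiap had shorter means in KO, and Cycs a longer one, at adjusted exact permutation p from 0.159 to 0.318. None of the 8 passed after adjustment, and the smallest unadjusted p that 252 assignments allow is 0.00794. TPM divides by this length, and the log2 fold change of Cflar was lower in TPM and with the length as an offset (0.37, adjusted p = 0.0276 by edgeR).

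The upstream sequence of these genes was searched for 7 short motifs on both strands in RefSeq promoter windows (GRCm38.p6), using the 250 bases before each annotated start. Windows were present for all 8 genes, and 32851 windows made up the comparison. The ARID3A motif ATTAAA was present in the window of 1 gene, Xiap, and in 12.7% of all windows. The NRF1 motif GCGCANGCG was present for 3 genes (Apaf1, Cycs and Birc2) and in 5.16% of all windows, and the CREB motif TGACGTCA for 2 (Cycs and Birc2) and in 1.55%. The counts are of genes, some with more than 1 window, and the percentages are of windows, so they are not on the same footing. The windows holding NRF1 letters were also rich in G and C, at 75.6% (Apaf1), 64% (Cycs) and 68.4% (Birc2) against a median of 52.4% over all windows. The letters for HNF4 (CAAAGNCCA, 1.7% of windows), HNF1 (GTTAAT, 6.43%), AP-1 (TGANTCA, 6.75%) and E2F (TTTNGCGC, 1.13%) were in none of the windows of the 8 genes. Shown are the window of Xiap that holds ATTAAA, since Arid3a is the gene deleted, that of Birc2, which holds NRF1 and CREB letters, and that of Casp6, the member with the largest log2 fold change, which holds none of the 7.
Xiap: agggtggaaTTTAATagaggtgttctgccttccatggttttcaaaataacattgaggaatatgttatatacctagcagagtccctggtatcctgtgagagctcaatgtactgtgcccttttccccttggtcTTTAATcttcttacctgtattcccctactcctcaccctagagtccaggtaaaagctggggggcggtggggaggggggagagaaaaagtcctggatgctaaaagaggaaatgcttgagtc
Birc2: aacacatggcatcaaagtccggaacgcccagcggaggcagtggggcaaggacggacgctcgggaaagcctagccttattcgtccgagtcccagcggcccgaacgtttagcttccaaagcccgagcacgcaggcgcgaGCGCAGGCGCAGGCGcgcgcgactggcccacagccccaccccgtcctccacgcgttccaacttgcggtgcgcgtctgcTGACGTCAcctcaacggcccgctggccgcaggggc
Casp6: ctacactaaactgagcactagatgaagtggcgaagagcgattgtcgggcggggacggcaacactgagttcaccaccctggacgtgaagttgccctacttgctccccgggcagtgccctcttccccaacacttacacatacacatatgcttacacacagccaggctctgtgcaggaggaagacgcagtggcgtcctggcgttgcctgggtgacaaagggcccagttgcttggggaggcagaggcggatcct
Each is written 5′ to 3′ along the gene with matches to a motif on either strand in capitals. They lie at chrX:42067586-42067835, plus strand (Xiap), at chr9:7837058-7837307, minus strand (Birc2) and at chr3:129901165-129901414, plus strand (Casp6). In Xiap the matches begin 241 and 119 bases before the start, and this window, 1 of 3 for Xiap, lies inside the Xiap gene as GENCODE draws it. In Birc2 a pair of overlapping NRF1 matches begin 113 and 107 bases before the start, and the CREB match 35 bases before. The other window of Birc2, which is not shown, holds none of the motifs. A match describes the letters and does not show binding.

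Other genes of the caspase system moved in part. Casp2, an initiator caspase, did not pass (log2 fold change -0.15, adjusted p = 0.113 by edgeR). Among 4 inflammatory and other caspases, Casp1, which matures interleukin-1β and interleukin-18, was higher (0.46 ± 0.11, adjusted p = 0.00984 by edgeR), and Casp12 was lower, from 2.96 to 5.33 CPM in WT to 1.85 to 2.92 in KO (-0.79 ± 0.20, adjusted p = 0.0128 by edgeR). These calls stand against 15.6% of all genes higher and 12.7% lower.

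Of 7 other inhibitor of apoptosis genes 3 were higher and 0 lower, beside 15.6% and 12.7% of all genes. Birc3, the neighbour of Birc2 at 11.6 kb, had a log2 fold change of 0.24 that did not pass (adjusted p = 0.124 by edgeR), and neither did Birc5 (-0.18) or Birc6 (0.02). The 3 that rose were Naip1 (0.45), Naip2 (0.30) and Naip5 (0.60), while Naip6 did not pass (0.27, adjusted p = 0.0618 by edgeR). These Naip genes are close copies of each other and sense bacterial proteins for the inflammasome, so the division of reads among them is uncertain. Their partner Nlrc4 was also higher (0.28 ± 0.06, adjusted p = 0.00667 by edgeR), as were Gsdmd, the pore former of pyroptosis (1.08 ± 0.26, adjusted p = 0.0144), and Il18 (1.51 ± 0.37, adjusted p = 0.0161), making 3 of 9 genes of pyroptosis and necroptosis. Among 4 antagonists of the inhibitors, Xaf1, which binds Xiap, rose from 2.21 to 3.86 CPM in WT to 4.24 to 9.23 in KO (0.97 ± 0.23, adjusted p = 0.00886 by edgeR). Htra2, a mitochondrial protease that can release caspases from inhibitors, fell (-0.35 ± 0.08, adjusted p = 0.0103), and Diablo did not pass (-0.03).

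The counts that follow also stand against 15.6% of all genes higher and 12.7% lower. Upstream of Casp8, 2 of 7 death receptors and ligands were higher, namely Fas (1.14 to 5.10 CPM in WT and 5.79 to 8.36 in KO, log2 fold change 1.25 ± 0.30, adjusted p = 0.0103 by edgeR) and Tnfrsf1a (0.26 ± 0.07, adjusted p = 0.0143). Of 10 adaptors and kinases of the receptors 1 was higher (Cyld, a deubiquitinase, 0.28) and 1 lower (Traf2, a partner of Birc2, -0.21), while Fadd (-0.03), which brings Casp8 to the receptors, did not pass. Of 11 substrates and effectors of the death phase 0 were higher and 3 were lower, namely Parp1, a DNA repair enzyme (-0.45), Lmnb1, a nuclear lamin (-0.32), and Acin1 (-0.25). Of 4 tested genes of cytochrome c handling 0 passed by edgeR, and 1, Hccs, which attaches heme to cytochrome c, had an unadjusted p below 0.05 (log2 fold change 0.21, adjusted p = 0.0521 by edgeR and 0.0286 by DESeq2).

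**Figure D5:**
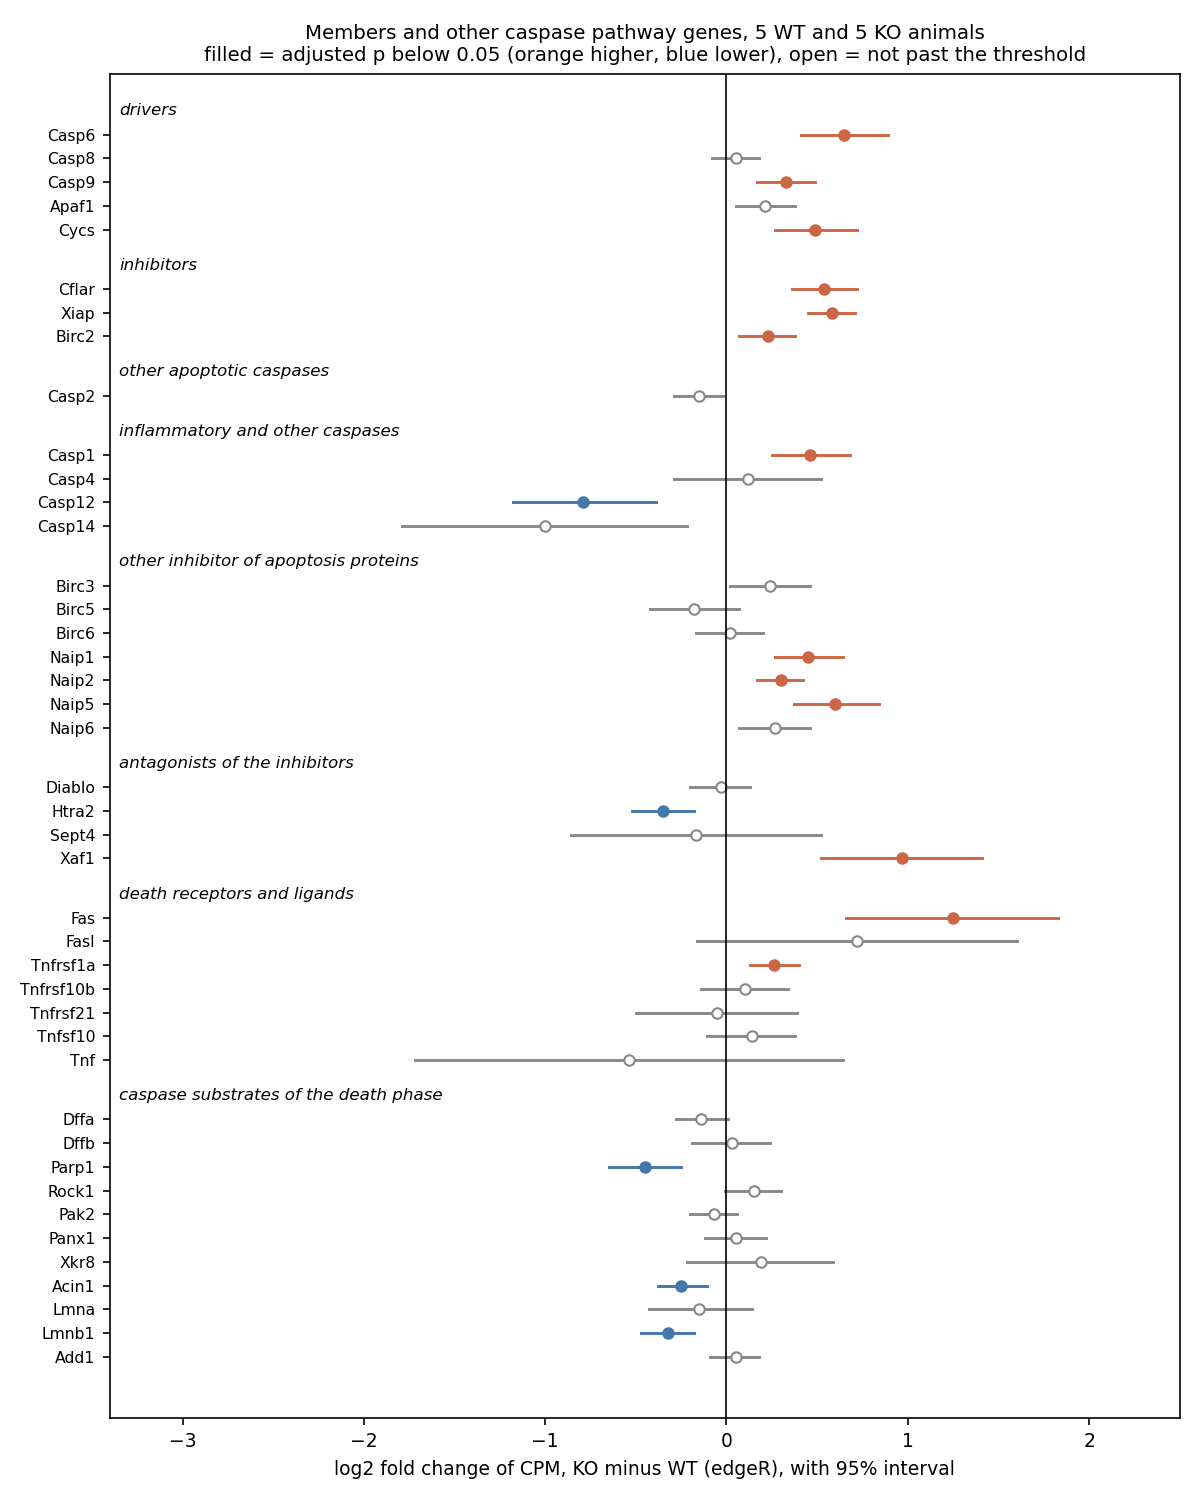
Log2 fold change (x axis, KO minus WT) of the 8 genes and of other caspase pathway genes grouped by role (y axis). Lines are approximate 95% intervals from the SE under a normal distribution, which are too narrow at this number of animals. Filled points have an adjusted p below 0.05, orange higher and blue lower in KO. Drivers and inhibitors lie at or above 0, and the substrates that passed, Parp1, Acin1 and Lmnb1, lie below it.

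Cell type markers moved with genotype as well. Of 8 absorptive enterocyte markers 7 were higher, their summed CPM being 942.1 to 4773 in WT and 6161 to 11254 in KO. Within WT this sum was lowest in WT4 and highest in WT2, as was the level of Casp6. In KO both were lowest in KO3 and highest in KO5, but KO4 had a sum of 11197 with Casp6 at only 135.0 CPM. No other of the 8 genes matched the sum at both ends in WT. Of 5 Paneth cell markers 4 were lower (11456 to 17945 and 7764 to 10581 CPM), as were 4 of 5 crypt base stem cell markers (4703 to 7724 and 3676 to 5557). Of 6 B and plasma cell markers 2 were lower (21.8 to 65.1 and 7.80 to 23.4 CPM). Of 6 tested fibroblast and endothelial markers 1 was lower (11.7 to 84.0 and 9.47 to 132.2 CPM, the highest in KO4), and of 6 macrophage markers 1 was lower (29.2 to 74.9 and 15.9 to 98.7 CPM). The part of these shifts in the levels of the 8 genes was not tested, and in RNA from whole crypts fewer cells of a type and less RNA per cell cannot be told apart. Without KO4 the log2 fold changes were 0.68 for Casp6, 0.54 for Cycs, 0.55 for Cflar, 0.59 for Xiap and 0.31 for Casp9, all past the threshold by edgeR (adjusted p from 0.00152 to 0.0305), and 0.22 for Birc2, which was not (adjusted p = 0.0821).

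Within a genotype some pairs of the 8 genes varied together and others did not, and no reference from other genes was calculated. Over the 10 libraries, after the genotype means were subtracted, the correlation of log2 CPM between 2 of the genes ran from -0.58 (Cycs with Xiap) to 0.84 (Casp9 with Birc2), with a median of 0.21 over 28 pairs. Of all tested genes, those most like Casp6 in these deviations were Dstn (r = 0.985) and Chmp5 (r = 0.982), both also higher in KO (log2 fold change 0.50 and 0.56). The closest to Cflar was Atg4c (r = 0.955, log2 fold change 0.58). Cycs was closest to Rhoa (r = 0.941, log2 fold change 0.09) and Ndufs4 (r = 0.939, 0.18), which did not pass. Casp9 was closest to Hace1 (r = 0.947, 0.28), which passed, after the predicted gene Gm32391 (r = 0.984, 0.29), which did not. Casp8 was closest to Pnpla1 (r = 0.950, -0.13) and Apaf1 to Plcg2 (r = 0.946, -0.09), which did not pass. Birc2 was closest to Tbc1d24 (r = 0.962, 0.58), which passed. These are the highest of 14719 values on 10 libraries that share their depth and composition, and are given without a test.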

How the data were processed

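RNA-seq libraries from jejunal crypts of 5 WT and 5 KO mice were grouped by the titles of the samples. The authors aligned reads with STAR and deposited, per the file headers, RSEM values for each of 54838 Ensembl genes of GRCm38, without a filter. The deposited expected counts are estimates in which reads matching several genes are divided, and TPM, deposited by the authors, is divided by effective length and scaled to the same total in each library. Transcript and effective lengths were deposited too. FPKM was not used. The strand setting is not given in the sources used here.

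Expected counts were rounded and tested with edgeR 4.0.16 in R 4.3.3 (filterByExpr with minimum count 10 and minimum total 15, TMM, robust quasi-likelihood test, Benjamini-Hochberg adjustment over 14719 genes, threshold 0.05). The study's own tool, DESeq2 1.42.0, and limma 3.58.1 were alternatives, the latter also on log2(TPM + 0.1). Effective lengths of KO and WT were set against each other by an exact permutation test (two-sided). Symbols came from GENCODE for GRCm38 (54723 IDs matched), where IDs without a symbol held 0.0193% of counts. Copies of the 8 genes were found with BLAST 2.17.0. Scripts were tested on simulated data. Replicate numbers did not pair the samples (correlations of same-numbered libraries -0.20 to 0.10). Totals of 27050455 to 31053622 leave 525 counts or more for each of the 8 genes in each library, so the spread between animals dominates. The rule for named genes covered the 8 genes, the pathway lists, Arid3a, near-identical copies and the genes most like each of the 8. Members and lists were chosen with earlier results of these data known. Some genes that meet the naming rule are not reported here.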

Additional observations from a re-analysis of the deposited data

Results flagged for a closer look

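Within a genotype, the highest or lowest library of 6 caspase pathway genes stood apart from the others (gap to the nearest library divided by the range, given in brackets), out of 170 groups of 5 libraries examined, where chance flags about 1 in 20. None was among the 8 genes described above. Casp14 was at 1.04 CPM in WT4 against 0.482 in the next library (0.871). Birc5 was at 83.7 CPM in WT2 against 63.9 (0.836), Rbck1 at 90.2 in WT2 against 79.2 (0.913) and Rock1 at 101.4 in KO2 against 91.4 (0.75). Tnfsf10 was low in KO5 at 73.5 CPM against 85.8 (0.786), and Chchd4 low in KO4 at 37.3 against 45.8 (0.823).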

How the results depend on the processing

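Casp6, Cycs and Xiap kept their direction and stayed past the threshold under all 23 alternatives each, with log2 fold changes of 0.51 to 0.75, 0.36 to 0.57 and 0.45 to 0.65. With library totals alone Casp8 turned to -0.08, and Casp9 (0.20) and Birc2 (0.09) lost their calls. With limma on log2(TPM + 0.1) and log2(TPM + 1) Casp8 was at -0.07 in both, and Casp9 (0.30 and 0.27), Cflar (0.26 and 0.25) and Birc2 (0.07 in both) were no longer past the threshold. With the effective length as an offset Apaf1 passed at 0.35 and Birc2 was lost at 0.18. Birc2 was also lost with RLE factors, with no filter and with at least 10 counts in every library (0.23 each) and with unrounded counts (0.22). The cause was not tested. Over the fits that left out 1 library Birc2 ran from 0.20 to 0.27 and Apaf1 from 0.16 to 0.25, Apaf1 passing without WT1 (adjusted p = 0.0488). The number of genes past the threshold ran from 3007 (without WT4) to 5571 (library totals alone), against 4167.

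Replicate numbers are shared only as numbers, and with the replicate block 3052 genes passed, Birc2 was lost (0.23, adjusted p = 0.114) and no other of the 8 calls changed. The KO library closest to each WT library in its deviations never had the same number. Without KO2 the exact permutation p for the effective length, adjusted over 8 genes, was 0.0317 for Cflar and for Casp9. The sums with near-identical copies were chosen after seeing the data. At 5 animals a group, the approximate intervals of Casp8 and Apaf1, which are too narrow, include increases of up to 0.18 and 0.38 log2.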
